A study of Mus musculus with 14 samples.

Results

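The genes of the T cell receptor are described here: every entry of the spleen count table whose symbol begins with Tra, Trb, Trg or Trd followed by v, j or c, that is, the variable (V), joining (J) and constant (C) genes of the alpha, beta, gamma and delta chains. No such entry carried a symbol in the table, and all were named from their Ensembl identifiers through GENCODE mouse release M39. There were 222 members among 22116 named entries: 189 of the alpha-beta receptor, 23 of the gamma-delta receptor and 10 alpha-chain V segments that can also join to delta. They comprised 144 V, 70 J and 8 C genes, and 9 of them had no count in any library.

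Spleens came from 14 wild type BALB/c females aged 6 to 8 weeks, all in a single labelled batch. The control mice (n = 3) had petrolatum on the back and both ears, although the series text calls them untreated. The imiquimod-dorsal mice (n = 4) had 5% imiquimod cream, a Toll-like receptor 7 agonist used to model psoriasis, on the back each day for 5 days, and the imiquimod-ear mice (n = 4) had the same cream on the ear. The IL-23-ear mice (n = 3) had 1 µg of recombinant mouse IL-23, a cytokine that maintains IL-17-producing T cells, injected into the skin of each ear 4 times over 7 days. Libraries are named by group and by the replicate number in the labels, such as imiquimod-dorsal 2. The spleen is a mixture of T cells, B cells, myeloid and red-cell precursors, and levels are relative to the RNA of all of them. A lower level of a T cell gene can come from fewer T cells, less RNA per T cell or more RNA from other cells. These cannot be told apart in bulk RNA.

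A T cell builds each receptor chain by cutting and joining 1 V and 1 J segment (with a D segment between them in the beta and delta chains), and the joined exon is spliced to a C gene. Most splenic T cells carry an alpha-beta receptor, and a small minority carry gamma-delta, with the gamma chain drawn from a few separate V-J-C clusters. Both receptors reach the surface only with the CD3 proteins, so CD3 RNA is a common yardstick for the 2 lineages. RNA of a C gene counts all chains of its locus, whereas RNA of a V or J segment counts only the chains that use it, and C genes and J segments can also be transcribed before they are joined.

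The joining segments of the gamma locus are shown because the results turn on Trgj1, the J segment in front of Trgc1, and on how far its reads can be told from those of its copies. Each is given in GRCm39 with its recombination signal in front; capitals mark the nonamer and the heptamer, the sites that the recombinase reads, and lower case the spacer between them and then the coding segment.
Trgj1, chr13:19394485-19394572 (+): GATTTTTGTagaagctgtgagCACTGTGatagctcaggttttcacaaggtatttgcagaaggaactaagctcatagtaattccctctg
Trgj2, chr13:19495415-19495502 (-): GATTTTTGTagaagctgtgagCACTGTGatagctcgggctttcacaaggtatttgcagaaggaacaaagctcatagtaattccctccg
Trgj3, chr13:19441259-19441346 (+): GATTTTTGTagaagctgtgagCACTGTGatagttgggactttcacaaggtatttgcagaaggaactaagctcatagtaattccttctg
Trgj4, chr13:19526294-19526382 (+): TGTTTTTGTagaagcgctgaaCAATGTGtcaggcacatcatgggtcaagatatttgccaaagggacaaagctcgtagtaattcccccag
The coding parts of Trgj1 and Trgj2 differed at 4 of 60 bases, and those of Trgj1 and Trgj3 at 6. The heptamer CACTGTG stood directly before 19 of the 70 J segments, so it is common and marks no subgroup.

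The constant genes are also near copies in places, which limits how finely their counts separate. A window of 60 bases in the first exon of each beta constant gene is shown around the only base at which those exons differ, in capitals, out of 375 bases.
Trbc1, chr6:41515381-41515440 (+): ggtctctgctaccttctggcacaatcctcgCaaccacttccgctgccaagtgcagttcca
Trbc2, chr6:41523893-41523952 (+): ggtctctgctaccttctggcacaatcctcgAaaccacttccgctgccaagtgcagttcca
The same kind of window is shown for Trgc1 and Trgc2, whose first exons differ at 9 of 330 bases, with the difference inside it in capitals.
Trgc1, chr13:19398286-19398345 (+): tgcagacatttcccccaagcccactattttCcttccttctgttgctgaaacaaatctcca
Trgc2, chr13:19491649-19491708 (-): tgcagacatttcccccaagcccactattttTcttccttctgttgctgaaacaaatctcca
Over their whole exon sequence, 28.7% of the 100-base stretches of Trbc1 and 30.9% of those of Trbc2 also occur in another member, against 3.39% for Trgc1, 0.613% for Trgc2, 2.87% for Trdc and none for Trac. Of the 110 alpha-chain V segments, 88 shared at least 1 such stretch with another member and 53 shared over 50% of theirs, while none of the 22 beta V segments shared any. Counts of single alpha V segments are therefore uncertain, all the more since reads of BALB/c mice were counted on the C57BL/6 reference. Trdc (+) and Trdv5 (-) overlap, and without strand their reads cannot be told apart.

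Libraries held 28354674 to 40289411 counts over named entries, of which the receptor genes took 2785 to 28767. A count of 0 allows up to 3 counts, or 0.0745 to 0.106 CPM before TMM scaling, and covers counting error only. All other CPM are TMM-scaled, that is, relative to an effective library size. Of the 222 members, 124 passed the filter on low counts and were tested. Of the 51 alpha J segments only 3 passed; J segments are 46 to 66 bases long, shorter than the 150-base reads. Per kilobase of exon, the mean level over the 14 libraries was highest for Trbc2 (174 CPM per kilobase), Trbc1 (114) and Trac (67.5). The gamma constants Trgc2, Trgc4 and Trgc1 were at 4.55, 4.38 and 3.86, Trdc was at 1.81, and Trgc3 had 9 counts in all libraries together. Among V segments, on the same scale, Trbv13-2 (22.9), Trbv13-1 (14.5), Trbv5 (12.4), Trbv1 (12.0) and Trbv13-3 (11.8) led the beta locus, Trav3-3 (4.79), Trav7-4 (4.18), Trav8d-1 (4.10), Trav9d-1 (2.91) and Trav7d-4 (2.86) the alpha segments that cannot join to delta, Trav14d-3-dv8 (3.83) and Trav16d-dv11 (2.91) those that can, Trgv2 (2.00), Trgv1 (1.05) and Trgv4 (0.803) the gamma locus, and Trdv2-2 (1.36) and Trdv1 (0.672) the delta locus. Among J segments Trbj2-7 (29.5), Trbj2-1 (28.8), Trbj2-3 (17.4), Trbj1-2 (16.6) and Trbj1-1 (14.7) led, far above Trgj4 (4.12), Trgj1 (2.98), Trdj1 (2.78), Trgj2 (2.52) and Traj18 (2.17).

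Imiquimod on the back was accompanied by a fall of nearly the whole receptor repertoire in the spleen. Of the 124 members tested, 116 fell and none rose against control, where 59.8% of all 15159 genes tested were called, 27.6% lower and 32.3% higher (edgeR quasi-likelihood test, Benjamini-Hochberg adjusted p under 0.05). The median log2 change of the tested members was -2.56, beside -0.00 for all genes. Leaving out any 1 library gave 110 to 119 members called.

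Trac, the alpha constant gene (chr14:54457978-54461663), was at 93.6, 82.8 and 64.9 CPM in control 2, 4 and 5 and at 16.0, 13.9, 11.45 and 13.1 CPM in imiquimod-dorsal 2, 3, 4 and 5. Every imiquimod-dorsal spleen was thus below every control spleen. The log2 fold change was -2.56 ± 0.20 (SE, adjusted p = 9.41e-07, edgeR).

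The beta constants moved with it. Trbc1 (chr6:41515152-41516815) fell by 2.49 ± 0.20 and Trbc2 (chr6:41523664-41525286) by 2.48 ± 0.21 on the log2 scale (SE, adjusted p = 1.24e-06 and 1.64e-06, edgeR), from means of 110.3 ± 24.3 and 149.8 ± 33.9 CPM in control to 19.6 ± 1.54 and 26.8 ± 5.34 CPM (SD, n = 3 and 4). Trbc1 held 41.4% to 44.0% of the beta constant counts in control and 38.4% to 46.0% in imiquimod-dorsal spleens, within the shared sequence shown above.

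The delta constant Trdc (chr14:54380308-54386325) fell less. It was at 12.3, 8.26 and 8.52 CPM in control 2, 4 and 5 and at 3.18, 4.03, 2.60 and 2.31 CPM in imiquimod-dorsal 2, 3, 4 and 5, again without overlap. Its log2 fold change was -1.68 ± 0.27 (SE, adjusted p = 0.000125, edgeR). The gamma constants Trgc2 (chr13:19488819-19491721) and Trgc4 (chr13:19528728-19536926) fell by 2.50 ± 0.26 and 2.53 ± 0.29 (log2, SE), with adjusted p = 3.95e-06 and 8.45e-06 (edgeR).

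Trgc1 (chr13:19398273-19401194) was the exception among the 7 tested constant genes. It was at 3.43, 3.26 and 2.38 CPM in control 2, 4 and 5, at 1.25 CPM in imiquimod-dorsal 2, and at 8.42, 6.11 and 5.63 CPM in imiquimod-dorsal 3, 4 and 5. The last 3 lay above every other spleen of the study, while imiquimod-dorsal 2 lay below every other. With all 4, the log2 fold change was 0.82 ± 0.46 (adjusted p = 0.137, edgeR); without imiquimod-dorsal 2 it was 1.15 (adjusted p = 0.00317).

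**Figure D1:**
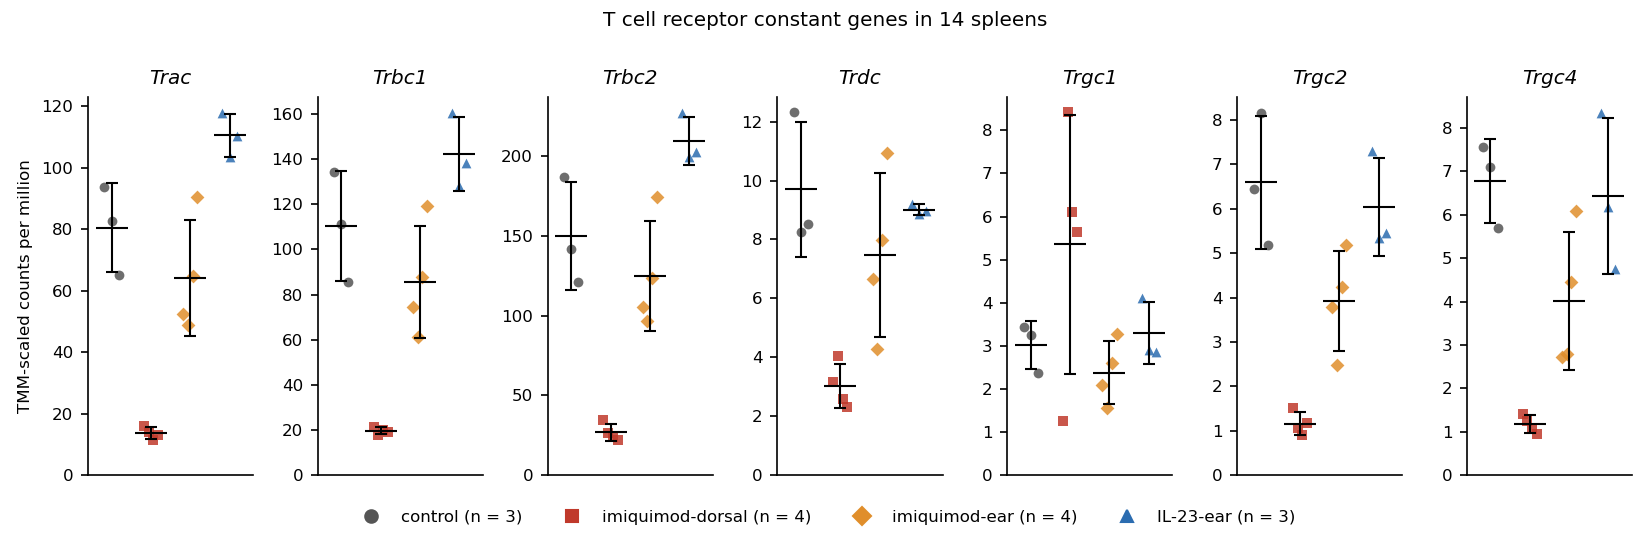
TMM-scaled CPM (y axes, each from 0) of the 7 tested constant genes in the 14 spleens by group; points are libraries, wide bars means and whiskers SD. Imiquimod-dorsal spleens lie below every control spleen for Trac, Trbc1, Trbc2, Trdc, Trgc2 and Trgc4, whereas for Trgc1 3 of them, at 5.63 to 8.42 CPM, lie above all other spleens and 1, at 1.25 CPM, lies below.

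Variable and joining segments fell together with the constant genes they are spliced to. All 13 Trbj segments, 17 of 19 tested beta V segments, 66 of 68 alpha V segments and all 7 tested alpha V segments that can join to delta fell, with median log2 changes of -2.56, -2.45, -2.72 and -2.96. Per 100 counts of the beta constants, beta V segments had 26.0 to 29.0 counts in control and 27.4 to 28.45 in imiquimod-dorsal spleens, and beta J segments 5.04 ± 0.366 and 4.62 ± 0.26 (SD, n = 3 and 4). Per 100 counts of Trac, alpha V segments had 63.6 ± 4.01 and 58.2 ± 5.60 counts. The ranges of the groups overlapped in all 3 ratios. Of 51 alpha J segments only Traj18, Traj26 and Traj49 passed the filter; Traj18 fell by 3.14 ± 0.97 (log2, SE, adjusted p = 0.0125, edgeR), and the other two had adjusted p = 0.084 and 0.306.

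By fitted log2 change, the rule for naming genes picked Trav6d-6, Trav9d-4, Trav9d-2, Trav4-4-dv10 and Trav9d-3; where all 4 libraries were at 0 that value depends on the prior count, so it gives no order. Trav6d-6 (chr14:53059379-53059816) had 25, 15 and 14 counts in the control libraries and none in any of the 4 imiquimod-dorsal libraries, which makes it at least 21.4-fold lower against 3 counts over the group. Trav9d-4 was likewise at 0 in all 4, at least 15.1-fold lower, and Trav9d-2 at least 7.53-fold lower. Each of these 3 shares much of its sequence with other members: all 100-base stretches of Trav6d-6 and Trav9d-2 and 73.6% of those of Trav9d-4 occur elsewhere among them. Trav4-4-dv10 had 44, 29 and 34 counts in control and 3, 1, 1 and 0 in imiquimod-dorsal libraries, a log2 change of -4.55 ± 0.51 (SE, adjusted p = 6.39e-06, edgeR). Trav4-3 was also at 0 in the imiquimod-dorsal libraries, but only control 2 of the 3 controls had counts, 35, and it did not pass the test (adjusted p = 0.125).

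The genes that carry the receptor to the surface and signal from it moved in the same direction. All 18 genes of a list of receptor-complex and coreceptor genes fell, with a median log2 change of -2.42; Cd3e, a CD3 chain, fell by 2.64, Cd8a, the CD8 coreceptor, by 3.02, Cd4 by 1.62 and the adhesion receptor Cd2 by 0.64. Cd8a counts per 100 Cd4 counts were 82.3 ± 2.26 in control and 31.2 ± 3.50 in imiquimod-dorsal spleens (SD, n = 3 and 4). Markers of natural killer cells fell as well (6 of 6 tested, median -1.94), with Ncr1 at 13.6 to 22.7 CPM in control and 4.20 to 6.64 CPM in imiquimod-dorsal spleens. Erythroid genes rose (6 of 6, median 4.00), among them Alas2, the first enzyme of haem synthesis in red-cell precursors, by 2.38 on the log2 scale. Of 7 tested B cell genes 3 fell, or 42.9%, and the others, such as Ms4a1 (log2 change -0.07 ± 0.08, adjusted p = 0.454, edgeR), did not pass. Beside these lists, 27.6% of all genes tested fell and 32.3% rose, or 59.8% together. The B cell count is therefore not read as particular to B cells. Among thymocyte genes Rag1 was at 0 to 0.327 CPM. Only 1 thymocyte gene of the list passed the low-count filter, and with a log2 change of 0.38 it was not called. What part these cell types have in the levels of the receptor genes was not tested.

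Scaling each library to its CD3 RNA (the summed counts of Cd3d, Cd3e and Cd3g) asks whether a receptor gene changed by more or less than the T cell receptor complex itself. On this scale the median log2 change of all genes was 2.56 between imiquimod-dorsal and control, and that of the tested members 0.01. Only 8 of the 124 members then differed, where 94.5% of all genes were called, 94.1% higher and 0.376% lower. Of the 8, 4 were higher (Trgc1, Trgj1, Trbv15 and Trdc) and 4 lower (Trav6d-6, Trav9d-4, Trav9d-2 and Trav4-4-dv10). Trgj1 passed the low-count filter only through imiquimod-dorsal spleens, where it was high, so its call is a description. Against 3 counts over the group, Trav6d-6 was at least 3.6-fold lower per CD3 count, Trav9d-4 at least 2.53-fold and Trav9d-2 at least 1.27-fold. The call of Trav9d-2 was lost in 12 of 14 fits that left out 1 library (edgeR adjusted p = 0.0496 to 0.082). Scaled to Cd2, Cd5 and Cd6 instead, 87 members were called, 2 higher and 85 lower. Cd2 fell far less than the receptor genes, so this scale itself moves the members towards lower values. No share of all genes is given for it, so the 87 are not read as particular to the members. Relative to CD3 RNA, the log2 change of Trac was 0.02 ± 0.21, of Trbc1 0.11 ± 0.22, of Trbc2 0.09 ± 0.21, of Trgc2 0.05 ± 0.28 and of Trgc4 0.03 ± 0.28 (SE, adjusted p = 0.626 to 0.946, edgeR). Alpha-beta constant counts per 100 CD3 counts were 119 to 121 in control and 122 to 134 in imiquimod-dorsal spleens.

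**Figure D2:**
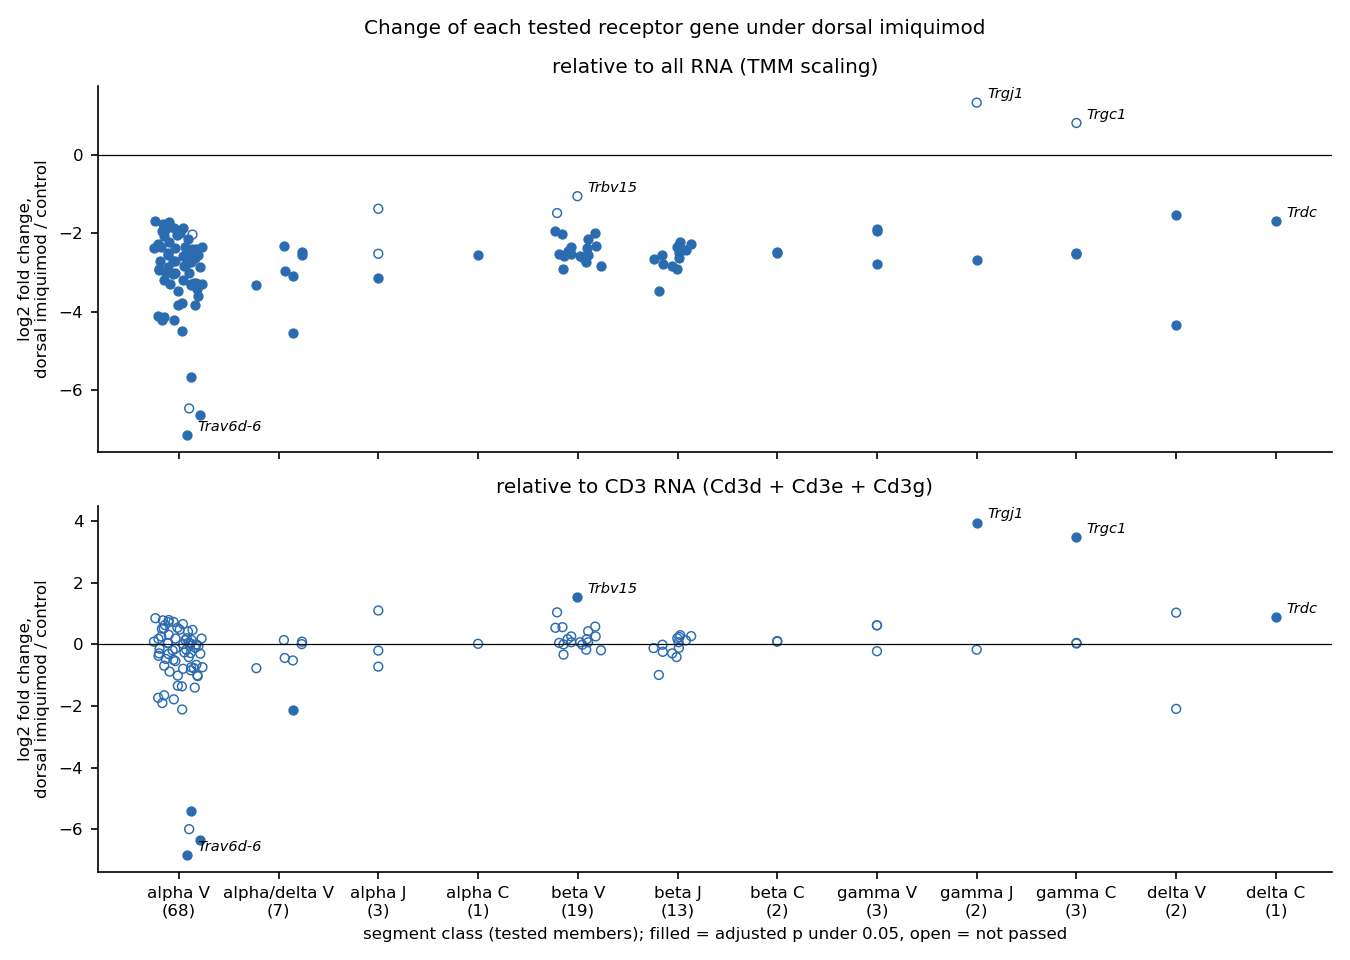
Log2 fold change of imiquimod-dorsal against control (y axes) for each of the 124 tested members by class (x axis, with the number tested), scaled to all RNA above and to CD3 RNA below; filled circles had an adjusted p under 0.05. Scaled to all RNA, 122 of 124 lie below 0. Scaled to CD3 RNA, most lie around 0, with Trgj1, Trgc1, Trbv15 and Trdc filled above it. Trdc, however, lies below 0, at -0.45, when scaled to Cd2, Cd5 and Cd6. Trgj1 passed the low-count filter only through imiquimod-dorsal spleens, where it was high, so its call is a description.

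Delta constant RNA was higher relative to alpha constant RNA after imiquimod on the back. Counts of Trdc per 100 counts of Trac were 13.2, 9.97 and 13.1 in control 2, 4 and 5 and 19.8, 29.0, 22.7 and 17.7 in imiquimod-dorsal 2, 3, 4 and 5. No value overlapped. The mean log2 ratio of Trdc to Trac differed by 0.87 (-2.18 ± 0.31 against -3.06 ± 0.23, SD), with an exact two-sided permutation p = 0.0571, the smallest that 4 against 3 spleens allow, or 0.0952 adjusted over the 5 comparisons made. In the edgeR fit Trdc was higher relative to CD3 RNA by 0.90 ± 0.25 (log2, SE, adjusted p = 0.0015), and relative to the summed Trac, Trbc1 and Trbc2 counts by 0.83 (adjusted p = 0.00258), but it was lower by 0.45 (adjusted p = 0.0559) when libraries were scaled to Cd2, Cd5 and Cd6, of which Cd2 fell far less than the receptor genes. Without imiquimod-dorsal 3, the highest library, the difference of the log2 ratio was 0.74, as it was without control 4, the lowest.

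**Figure D3:**
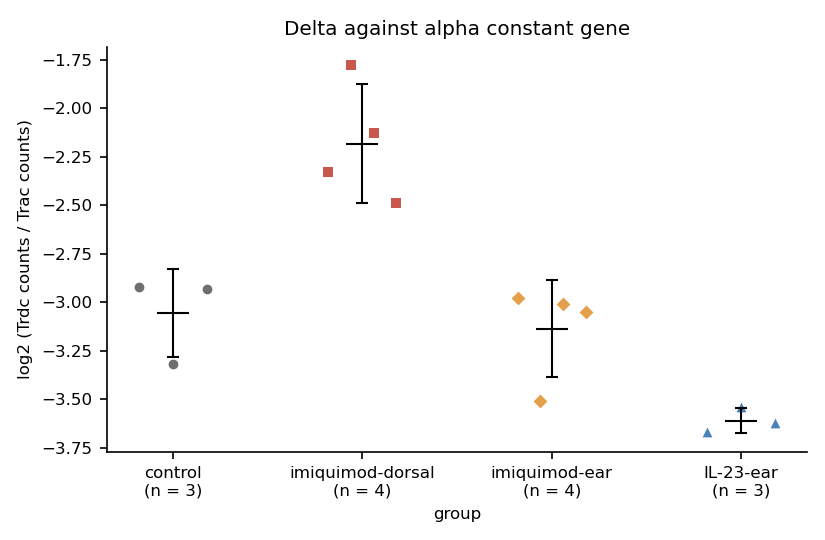
Log2 ratio of Trdc to Trac counts (y axis) in each spleen by group (x axis); points are libraries, bars mean ± SD. Imiquimod-dorsal spleens lie between -2.49 and -1.78, above all others, and IL-23-ear spleens between -3.67 and -3.54, below all others.

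Trgc1 was higher relative to CD3 RNA. Its counts per 100 CD3 counts were 0.989, 1.17 and 1.05 in control 2, 4 and 5, 2.14 in imiquimod-dorsal 2 and 17.6, 14.7 and 13.3 in imiquimod-dorsal 3, 4 and 5, so that on this scale imiquimod-dorsal 2 was also above the controls, though far below its group. The log2 change was 3.47 ± 0.50 (SE, adjusted p = 3.98e-06, edgeR), and 3.22 to 3.83 when any 1 library was left out. Trgc1 made up 17.5% to 19.7% of the gamma constant counts in control, 29.7% in imiquimod-dorsal 2 and 72.7% to 78.5% in the other imiquimod-dorsal spleens.

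Trgj1, the J segment before Trgc1, went with it, on few counts: 6, 3 and 5 in control 2, 4 and 5 and 3, 17, 11 and 11 in imiquimod-dorsal 2, 3, 4 and 5. The last 3 were the highest in the study, and only through them did Trgj1 pass the low-count filter. It was tested in 11 of the 14 fits that left out 1 library. Because the group where Trgj1 was high also let it into the test, its p-values are a description. Its log2 change was 1.34 ± 0.59 on the scale of all RNA (adjusted p = 0.0642; 0.0119 without imiquimod-dorsal 2) and 3.95 ± 0.76 relative to CD3 RNA (adjusted p = 1.76e-05, edgeR). The sequences above set Trgj1 apart from Trgj2 by 4 bases only, but Trgj2 counts were 8, 10 and 7 in control and 2, 2, 1 and 1 in imiquimod-dorsal libraries.

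The V segments of the same cluster did not follow. Trgv4, Trgv5, Trgv6 and Trgv7, which join to Trgj1 and include the segments of IL-17-producing (Trgv4, Trgv6) and epidermal (Trgv5) gamma-delta T cells, had 36, 38 and 16 counts together in control 2, 4 and 5 and 4, 14, 0 and 4 in imiquimod-dorsal 2, 3, 4 and 5. Per 100 Trgc1 counts, this is 27.6 V counts in the pooled control libraries and 3.27 in the pooled imiquimod-dorsal libraries, with 17.4 in imiquimod-ear and 17.1 in IL-23-ear. Trgv4, the only one tested, fell by 1.94 ± 0.70 (log2, SE, adjusted p = 0.0287, edgeR), with imiquimod-dorsal 3 inside the range of the controls. In the Trgc2 cluster, Trgv2 counts per 100 Trgc2 counts were 25.8 in control and 21.2 in imiquimod-dorsal, and in the Trgc4 cluster Trgv1 counts per 100 Trgc4 counts were 8.46 and 13.2. Stard3nl, the gene next to the locus, was at 22.6 to 24.1 CPM in control and 21.01 to 25.4 CPM in imiquimod-dorsal spleens (adjusted p = 0.741).

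**Figure D4:**
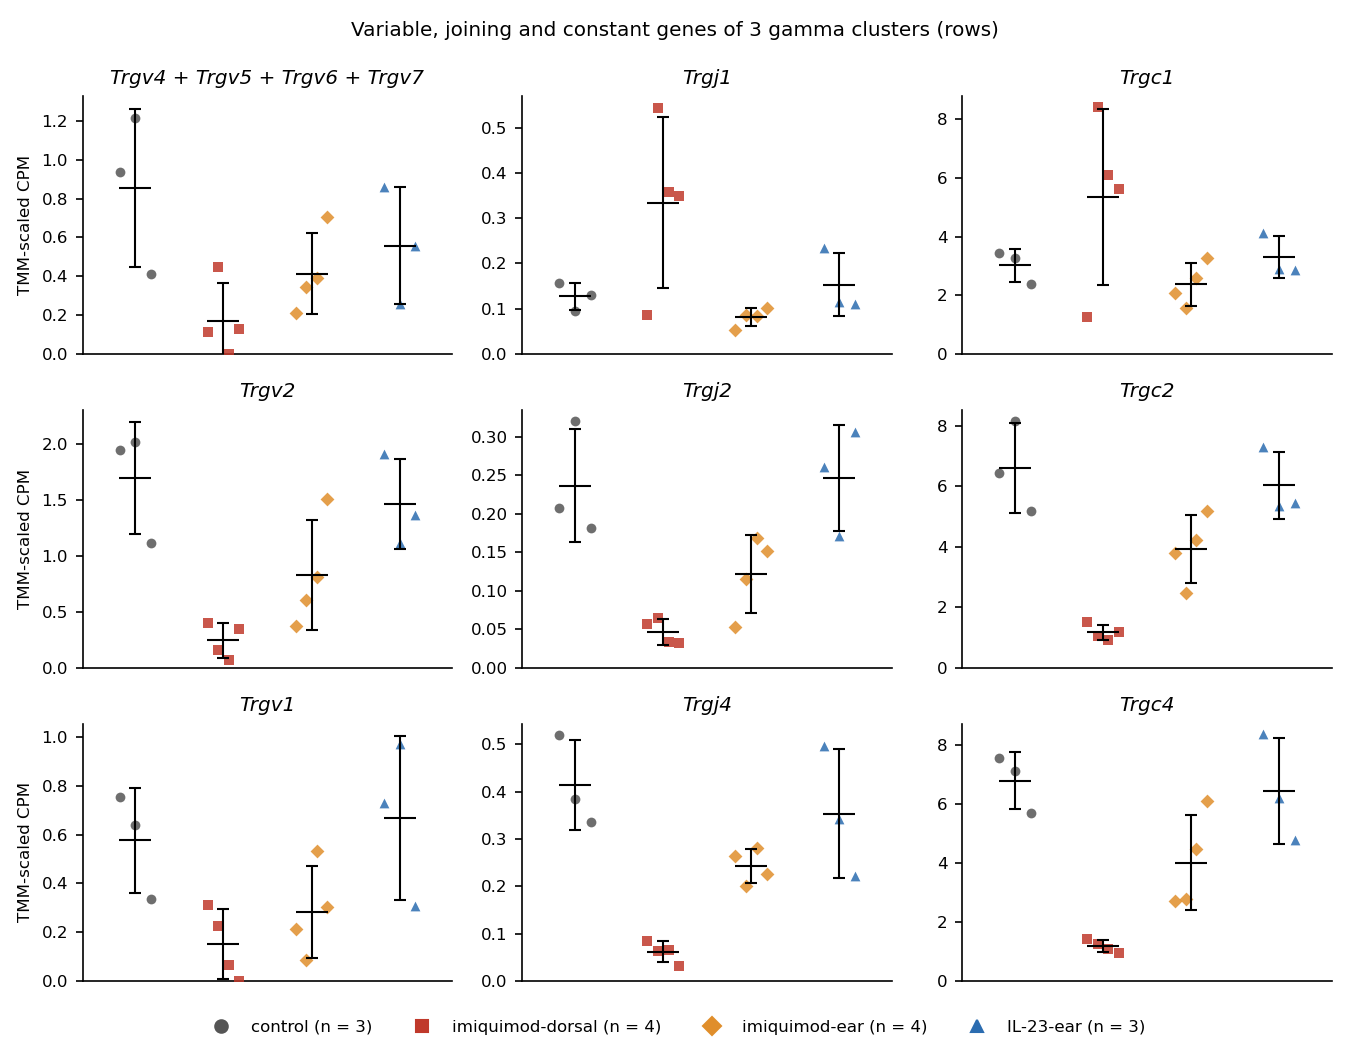
TMM-scaled CPM (y axes, from 0; whiskers below 0 are not drawn) of the V (left), J (middle) and C genes (right) of the Trgc1, Trgc2 and Trgc4 clusters (rows) in the 14 spleens; points are libraries, bars mean ± SD. In the Trgc1 cluster 3 imiquimod-dorsal spleens are the highest of the study for Trgj1 and Trgc1 but not for the V segments, and in the other clusters V, J and C genes are all low in that group.

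The 5 other gamma-delta segments that could be tested all fell. Trgv2, the most used gamma V segment per length, fell by 2.77 ± 0.53 (adjusted p = 0.000515), Trgv1, common among splenic gamma-delta T cells, by 1.89 ± 0.76 (adjusted p = 0.0443), and Trgj4 by 2.67 ± 0.48 (log2, SE, adjusted p = 0.000284, edgeR). Trdv1 had 11, 14 and 16 counts in control and 2, 0, 0 and 0 in imiquimod-dorsal libraries, a log2 change of -4.35 ± 0.90 (adjusted p = 0.000881), while Trdv2-2, the most used delta V segment, had 34, 26 and 20 and then 13, 3, 7 and 10, a change of -1.54 ± 0.43 (adjusted p = 0.00742). Relative to CD3 RNA the log2 changes of Trdv1 and Trdv2-2 were -2.09 ± 1.15 and 1.03 ± 0.53 (adjusted p = 0.0827 and 0.0657), and whether these differ was not tested. Trgv3, Trgv5, Trgv6, Trgv7, Trdv2-1, Trdv4 and Trdv5, with 4 to 36 counts each over all libraries, were too low to test.

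Of 7 tested genes used by gamma-delta and type 17 cells 3 fell, or 42.9%, where 27.6% of all genes fell and 59.8% were called, so the count is not read as particular to them. Zbtb16, a transcription factor of innate-like T cells, fell by 2.52 ± 0.39, Sox13, a transcription factor of gamma-delta T cells, by 1.02 ± 0.14 and Maf by 0.48 ± 0.11 (log2, SE, adjusted p = 0.000105, 4.24e-05 and 0.00227, edgeR). Il23r, the IL-23 receptor subunit, was at 0.684 ± 0.279 CPM in control and 0.454 ± 0.145 CPM in imiquimod-dorsal spleens (SD, n = 3 and 4, adjusted p = 0.273, edgeR).

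After imiquimod on the ear few receptor genes passed the test, although 114 of the 124 tested members lay below 0, with a median log2 change of -0.45 beside 0.02 for all genes. Of the 124 members, 4 fell and none rose, beside 6.97% of all genes that fell and 14.3% that rose (edgeR). They were Trav6-3 (log2 -1.55 ± 0.45, adjusted p = 0.0273), Trav14-2 (-1.27 ± 0.43, adjusted p = 0.0486), Trbj1-2 (-0.75 ± 0.25, adjusted p = 0.0472) and Trgc2 (-0.75 ± 0.24, SE, adjusted p = 0.0431). The count rests on single spleens: it was 25 without imiquimod-ear 5, 4 without imiquimod-dorsal 3, and 0 to 3 without any of the others, with 0 for control 2, imiquimod-ear 3 and imiquimod-ear 4. Imiquimod-ear 5 lay beside control 5 on the first principal component of all genes and had the highest Trac of its group, 90.5 CPM, against 52.5, 48.9 and 64.6 CPM in imiquimod-ear 1, 3 and 4. DESeq2 called 3 of the 78 members to which it gave an adjusted p, beside 3973 of 14242 genes.

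Among the constant genes only Trgc2 passed the test after imiquimod on the ear. The log2 changes of the others were -0.33 ± 0.19 for Trac, -0.36 ± 0.20 for Trbc1, -0.26 ± 0.21 for Trbc2, -0.38 ± 0.26 for Trdc, -0.34 ± 0.45 for Trgc1 and -0.76 ± 0.27 for Trgc4 (SE, adjusted p = 0.065 to 0.62, edgeR). Gamma-delta constants were 5.10% to 6.53% of all constant counts in imiquimod-ear and 6.70% to 7.43% in control spleens, without overlap and without a test. The mean log2 ratio of Trdc to Trac differed from control by -0.08 (-3.14 ± 0.25 against -3.06 ± 0.23, SD; exact permutation p = 0.629), and the groups overlapped. Without imiquimod-ear 3, the lowest of its group, the difference was 0.04. On the CD3 scale 1 member was higher, Trbv15, and none lower, beside 9.18% and 0.409% of all genes, or 9.59% together.

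The application sites were compared directly with each other. Against the imiquimod-dorsal spleens, the imiquimod-ear spleens were higher for 107 of 124 members and lower for 2, beside 23.3% and 24.5% of all genes, or 47.7% together (edgeR). Trac was higher by 2.24 ± 0.19, Trbc2 by 2.22 ± 0.20, Trdc by 1.30 ± 0.26 and Trgc2 by 1.75 ± 0.25 (log2, SE, adjusted p = 3e-06 to 0.000993). The 2 lower members were Trgc1 (-1.17 ± 0.42, adjusted p = 0.0358) and Trgj1 (-1.99 ± 0.57, adjusted p = 0.0113). Trgj1 passed the low-count filter only through imiquimod-dorsal spleens, where it was high, so its p-value is a description. The call of Trgc1 was lost when any of 7 libraries was left out (adjusted p up to 0.123, without imiquimod-dorsal 3) and held without imiquimod-dorsal 2. Relative to CD3 RNA, 7 members were lower, Trgc1 by 3.46 ± 0.44 and Trdc by 0.94 ± 0.23 among them, and 5 higher, beside 93.5% and 0.218% of all genes, or 93.7% together. Trav7-5 (-1.75 ± 0.67, adjusted p = 0.015) was also among the lower. Scaled to Cd2, Cd5 and Cd6, Trdc was instead higher by 0.33 (adjusted p = 0.128), and 68 members were higher and 2 lower. No share of all genes is given for that scale either. The log2 ratio of Trdc to Trac was lower by 0.95 in imiquimod-ear spleens without overlap (exact permutation p = 0.0286, the smallest that 4 against 4 allow; 0.0952 adjusted over the 5 comparisons).

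IL-23 in the ear was not followed by a call in any receptor gene. By edgeR none of 124 members passed against control, and 6 had an unadjusted p under 0.05, beside 1305 of 15159 genes. Of all genes 0.0528% were called, 0.0462% higher and 0.0066% lower. DESeq2 gave an adjusted p to only 12 of the members and called none of them, beside 132 of 11615 genes. It therefore gives no result for the other members. The values stood as follows. Above 0 lay 102 of the 124 members, with a median log2 change of 0.31 beside 0.01 for all genes. The median was 0.39 for alpha-beta and -0.11 for gamma-delta members, and whether these differ was not tested. Trac was at 118, 104 and 110.2 CPM in IL-23-ear 1, 2 and 3, each above the highest control, 93.6 CPM (log2 0.46 ± 0.20, adjusted p = 0.555). Trbc2 was also above control without overlap (0.48 ± 0.22, adjusted p = 0.574). Trdc was at 9.21, 8.87 and 8.96 CPM, inside the range of the controls (-0.11 ± 0.28, adjusted p = 0.947).

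The ratio of delta to alpha constant was therefore the lowest of the study after IL-23. Counts of Trdc per 100 counts of Trac were 7.83, 8.56 and 8.13 in IL-23-ear 1, 2 and 3, below the lowest control, 9.97. The mean log2 ratio differed by -0.55 (-3.61 ± 0.06 against -3.06 ± 0.23, SD), with an exact two-sided permutation p = 0.1, the smallest that 3 against 3 allow, and 0.125 adjusted. Gamma-delta constants were 5.08% ± 0.394 of all constant counts in IL-23-ear and 7.19% ± 0.425 in control spleens, again without overlap and without a test. With CD3 scaling edgeR called no member and no gene at all (0.0%). Of 124 members 3 had an unadjusted p under 0.05, beside 4946 of 15159 genes. DESeq2 called none of the 44 members to which it gave an adjusted p, beside 223 of 14246 genes.

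Summed over all members, receptor RNA was at 635.3 to 750.5 CPM in IL-23-ear and 302.7 to 573.7 CPM in imiquimod-ear spleens, without a test. Of 124 members 17 (13.7%) were higher and none lower, beside 7.05% and 10.2% of all genes, or 17.3% together (edgeR). The share called in either direction was thus below that of all genes, whereas the share called higher was above it. Of the 124 members 122 lay above 0, with a median log2 change of 0.74 beside -0.02 for all genes. Of the 17, 16 belonged to the alpha-beta receptor and 1 was an alpha V segment that can join to delta. Trac was higher by 0.78 ± 0.19, Trbc1 by 0.73 ± 0.19 and Trbc2 by 0.75 ± 0.20 (log2, SE, adjusted p = 0.015, 0.0238 and 0.0272), and the largest changes were those of Trav6-3 (1.83 ± 0.45), Trav14-2 (1.67 ± 0.42) and Trav17 (1.56 ± 0.51), before Trav16n (1.30 ± 0.42) and Trav5-1 (1.21 ± 0.37). Trdc differed by 0.27 ± 0.26 (adjusted p = 0.503). None of the 11 tested gamma-delta members was called, but all lay above 0, with a median of 0.62 beside 0.74 for the alpha-beta members and -0.02 for all genes, and whether the receptors differ was not tested. Erythroid genes had a median of -1.66, with 1 of 6 called lower. All 6 had an unadjusted p under 0.05, beside 5015 of 15159 genes. The part of erythroid genes in the result was not tested. The count was 40 without imiquimod-ear 5, 0 without IL-23-ear 1, and 3 to 8 without imiquimod-ear 1, 3 or 4 or IL-23-ear 2 or 3. On the CD3 scale 3 members were lower, Traj49, Trbv15 and Trdc, and none higher, beside 80.2% and 0.402% of all genes, or 80.6% together; the change of Trdc was -0.58 ± 0.25 (adjusted p = 0.0353) and lost its call without any of 5 libraries (adjusted p = 0.0687 to 0.0987).

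The order of beta V use was led by the same segment in every spleen. Expressed as a share of the summed beta V level per length in a library, Trbv13-2, a segment of the large V-beta-8 family, came first in each of the 14 libraries, with 15.9% to 16.9% in control, 15.4% to 18.7% in imiquimod-dorsal, 13.1% to 16.5% in imiquimod-ear and 15.5% to 16.1% in IL-23-ear spleens. Trbv13-1, Trbv5, Trbv1 and Trbv13-3 followed with 7.96% to 9.74% over all libraries. The shares of Trbv13-1 overlapped between every pair of groups, whereas those of Trbv13-3 were 8.18% to 8.82% in control and 6.55% to 8.14% in imiquimod-ear spleens. Trbj2-1 and Trbj2-7 were the most used J segments (15.5% and 14.8%), and the Trbj1 cluster held 44.4% ± 0.908 of beta J counts in control, 45.6% ± 3.24 in imiquimod-dorsal, 40.6% ± 2.41 in imiquimod-ear and 41.3% ± 1.16 in IL-23-ear spleens. None of the 22 shares was tested on its own.

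**Figure D5:**
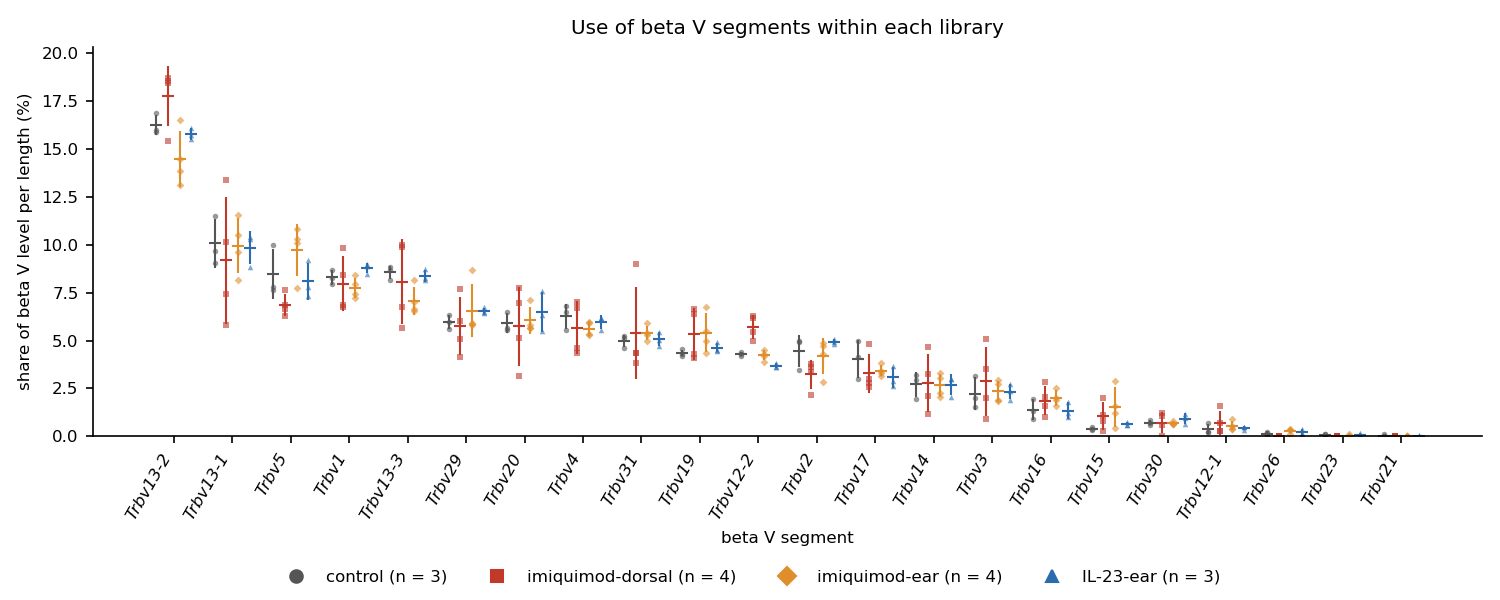
Share of each beta V segment in the summed beta V level per length of a library (y axis, percent) for the 22 segments in order of mean share (x axis), by group; points are libraries, bars mean ± SD. Trbv13-2 leads in every group, and Trbv15, at 0.304% to 0.466% in control, reaches 2.91% in 1 imiquimod-ear spleen.

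BALB/c mice carry endogenous mammary tumour virus superantigens that delete many T cells using Trbv12-1, Trbv12-2, Trbv15, Trbv16 or Trbv26. Trbv12-2 was the most used of them, with 4.55% of the beta V level over all libraries. It fell under dorsal imiquimod by 2.02 ± 0.29 (log2, SE, adjusted p = 4.15e-05, edgeR), and its share was 4.17% to 4.41% in control and 4.97% to 6.29% in imiquimod-dorsal spleens, without overlap and without a test of the share. Trbv26 had 57 counts in all and was not tested. Trbv15 had 16, 8 and 6 counts in control 2, 4 and 5, 6, 1, 3 and 7 in imiquimod-dorsal 2, 3, 4 and 5, 27, 43, 23 and 13 in imiquimod-ear 1, 3, 4 and 5, and 25, 22 and 19 in IL-23-ear 1, 2 and 3. Its highest counts were those of imiquimod-ear 3, and the imiquimod-ear and control groups overlapped. Relative to CD3 RNA Trbv15 was higher by 1.97 ± 0.63 in imiquimod-ear (adjusted p = 0.0483) and by 1.53 ± 0.73 in imiquimod-dorsal spleens (log2, SE, adjusted p = 0.0472, edgeR). Both calls were at the edge of the threshold: the first was lost without any of 12 libraries (adjusted p up to 0.225, without imiquimod-ear 3) and the second without any of 11 (up to 0.197, without imiquimod-dorsal 5).

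Alpha V segments were used broadly. Trav3-3, the most used per length, held 3.79% to 4.84% of the alpha V level in control and 5.68% to 8.15% in imiquimod-dorsal spleens; it fell by 2.03 ± 0.30 on the scale of all RNA (adjusted p = 5.42e-05) and its change relative to CD3 RNA was 0.54 ± 0.34 (log2, SE, adjusted p = 0.127, edgeR). Trav8d-1, Trav7-4, Trav14d-3-dv8 and Trav16d-dv11 came next, with 3.87%, 3.596%, 3.53% and 2.76% over all libraries. By family, which is less exposed to shared reads, Trav7 held 17.9% ± 2.195, 15.6% ± 4.21, 17.7% ± 0.918 and 16.5% ± 0.704 of alpha V counts in the control mice, then the imiquimod mice (back, then ear) and the IL-23 mice (SD), and Trav6 13.8% ± 1.03, 14.1% ± 3.11, 15.5% ± 0.536 and 14.4% ± 1.14. The groups overlapped in the first of these families. In Trav6, control (14.74% or less) and imiquimod-ear spleens (14.98% or more) did not overlap, and the difference was not tested.

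The segments of invariant receptors ranged from well used to scarce. Trav11d ranked 12 and Trav11 28 among the 110 alpha V segments by level per length, Trav1 ranked 68, and Traj18 had 74 counts in all, the most of any alpha J segment. The alpha chain of invariant natural killer T cells joins Trav11 or its copy Trav11d, which cannot be told apart by sequence, to Traj18. The Trav11 pair held 3.12% ± 0.369 of alpha V counts in control, 3.37% ± 0.667 in imiquimod-dorsal, 2.28% ± 0.179 in imiquimod-ear and 2.37% ± 0.738 in IL-23-ear spleens, with no overlap between control (2.74% or more) and imiquimod-ear (2.46% or less). In imiquimod-dorsal spleens Trav11 fell by 2.93 ± 0.68 and Trav11d by 2.36 ± 0.39 (log2, SE, adjusted p = 0.00198 and 0.000165, edgeR), and relative to CD3 RNA they changed by -0.37 ± 0.68 and 0.19 ± 0.52. Trav1, used by mucosal-associated invariant T cells, had 16, 14 and 5 counts in control and 0, 0, 0 and 2 in imiquimod-dorsal libraries, a fall of 4.12 ± 1.25 (adjusted p = 0.0113), and Traj33, its partner, had 14 counts in all libraries together.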

How the data were processed

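RNA-seq of 14 spleens was used: poly(A) RNA, NEBNext Ultra II libraries without strand, paired 150-base reads, per the labels' protocols. The deposited values are raw read counts per gene made by the authors, and the submitters' processing notes name featureCounts 2.0.3, HISAT2 2.2.1, fastp 0.23.2, DESeq2 1.38.3, StringTie 2.2.1 and GRCm39, without their roles; the treatment of shared reads was not stated. Among 22740 entries, 624 assembled loci without a name, with 0.484% to 0.674% of the counts, entered neither the library sizes nor the fits. Among counts of 1 to 10, 44.4% were even for receptor genes and 59.8% for all genes. Receptor genes were named from Ensembl identifiers with GENCODE M39, and sequences were read from GRCm39.

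Counts were tested with edgeR 4.0.16 (R 4.3.3, limma 3.58.1) by the robust quasi-likelihood F test, all 14 libraries in 1 fit with TMM scaling, filterByExpr with a minimum count of 10, and Benjamini-Hochberg adjustment over 15159 genes at 0.05. A second fit took the Cd3d, Cd3e and Cd3g counts as library size; on this scale the median log2 change of all genes was 2.56 for imiquimod-dorsal and 0.43 for imiquimod-ear against control, -0.53 for IL-23-ear against control, -2.13 for imiquimod-ear against imiquimod-dorsal and -0.97 for IL-23-ear against imiquimod-ear, beside -0.02 to 0.02 with TMM. Ratios of Trdc to Trac were compared on log2 counts plus 0.5 with exact two-sided permutation tests (scipy 1.17.1). Class sums, ratios and shares are descriptions with no test. The fits were tested on simulated data with 200 changed genes.

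Genes were named by a rule: every constant gene, the 5 members with the highest level per length in each V and J class, up to 5 of the largest called changes in each direction without overlap between groups for each comparison and scaling, segments of invariant or innate-like receptors and of superantigen-reactive beta chains, and genes of the lists; Trav4-3 was named after its values were seen. The members, gene lists and rules were chosen with earlier results of these data known. P-values measure the spread between these mice. Alternatives were no filter, DESeq2 1.42.0, a replicate block, RLE size factors, removal of 272 haemoglobin and immunoglobulin genes, scaling to Cd2, Cd5 and Cd6, each library left out in turn, a pseudocount of 2 and, chosen after seeing the data, scaling to Trac, Trbc1 and Trbc2.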

Additional observations from a re-analysis of the deposited data

Results flagged for a closer look

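Single spleens stood far from the other 3 of their group in 11 of 113 groups of 4 examined. In these, the gap to the nearest spleen took up more than 0.829 of the group's range. That limit is passed by about 1 in 20 groups only where values are independent and normally distributed. Some of the 11 repeat the same quantity, such as Trdc per Trac and its log2 ratio. Others are segments with a few counts in a single spleen of the group. Whether 11 of 113 exceeds chance therefore cannot be judged, and the spleens are listed as a description. In imiquimod-dorsal 2, Trgc1 made up 29.73% of the gamma constant counts, against 72.65% to 78.51% in the others. The same spleen had the lowest share of Trbj1 segments among beta J counts, 40.82% against 46.77% to 47.62%. Its summed alpha V level was 8.74 CPM against 7.523 to 7.577 CPM, and its summed alpha-beta variable level 24.6 CPM against 19.14 to 20.06 CPM. In imiquimod-dorsal 3, the gamma-delta constants other than Trgc1 were 9.826% of all constant counts, against 7.547% to 7.866%.

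In imiquimod-ear 3, Trdc counts per 100 Trac counts were 8.749, against 12.09 to 12.68, and the log2 ratio was -3.51. Imiquimod-ear 5 had Trav6n-5 at 0.7041 CPM, against 0.3448 to 0.3922 CPM. Imiquimod-dorsal 5 was the only spleen of its group with counts of Trav9d-3 (0.06328 CPM), Trav9n-4 (0.06328 CPM) and Trav6n-5 (0.09492 CPM), each from 2 or 3 counts and in segments whose sequence is mostly shared with others.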

How the results depend on the processing

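The 116 members called for imiquimod-dorsal against control stayed between 108 and 124 under the other settings and between 110 and 119 when 1 library was left out. Calls for imiquimod-ear against control went from 4 to 2 with no filter and ranged from 0 to 25 with 1 library left out; those for IL-23-ear against control were 0 throughout; those for imiquimod-ear against imiquimod-dorsal ranged from 93 to 110, and those for IL-23-ear against imiquimod-ear from 0 to 40. Relative to CD3 RNA, the same leave-outs gave 6 to 11, 0 to 1, 0, 8 to 15 and 0 to 3 members. Scaled to Cd2, Cd5 and Cd6, 87 members were called for imiquimod-dorsal against control and 70 for imiquimod-ear against imiquimod-dorsal, without a share of all genes. The 1 member called for imiquimod-ear against control relative to CD3 RNA became 0 with no filter, with DESeq2 and with scaling to Trac, Trbc1 and Trbc2, and that last scaling left 1 of 3 for IL-23-ear against imiquimod-ear. Differences in the log2 ratio of Trdc to Trac ranged from 0.74 to 0.98, -0.21 to 0.04, -0.69 to -0.49, -1.06 to -0.82 and -0.60 to -0.42 in the same order of comparisons, with 0.04 only without imiquimod-ear 3. Trdc relative to CD3 RNA turned to -0.45 and 0.33, under the Cd2, Cd5 and Cd6 scaling for imiquimod-dorsal against control and imiquimod-ear against imiquimod-dorsal; Trbv15 in the latter ranged from -0.10 (without imiquimod-ear 3) to 0.88 with 1 library left out. The causes were not tested.

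Replicate numbers showed no sign of pairing the spleens. Correlations of deviations were -0.241 to 0.183 for same-numbered spleens and -0.231 to 0.218 for the others. With 3 or 4 spleens per group these correlations cannot exclude a pairing. With a replicate block, 0 members were called for imiquimod-ear against control, on either scale, 1 for IL-23-ear against imiquimod-ear (0 relative to CD3 RNA), 108 for imiquimod-dorsal against control and 95 for imiquimod-ear against imiquimod-dorsal. Low counts left 98 of the 222 members untested.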

Other observations

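Across the 14 spleens and 15158 other genes, Trgj1 had the level pattern most like that of Trgc1, followed by Cish, Podxl, Arrdc3 and Fbxl6, ranked by the correlation of log2(CPM + 0.5). Cish, an inhibitor of cytokine signalling, was at 10.6, 7.26 and 6.76 CPM in control 2, 4 and 5, at 8.00 CPM in imiquimod-dorsal 2, and at 16.7, 14.7 and 13.7 CPM in imiquimod-dorsal 3, 4 and 5. Podxl, a surface sialomucin, was at 15.7 to 18.1 CPM in control, at 18.4 CPM in imiquimod-dorsal 2, and at 62.5, 58.0 and 38.8 CPM in the other 3. Both rose in imiquimod-dorsal against control, by 0.70 ± 0.25 and 1.39 ± 0.33 (log2, SE, adjusted p = 0.0276 and 0.00297, edgeR), and in both imiquimod-dorsal 2 stood below the rest of its group, as it did for Trgc1. These genes were picked for their likeness to Trgc1 after its values were seen, so their own changes are a description.

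Cd8a counts per 100 Cd4 counts ranged from 45.4 to 71.8 in imiquimod-ear spleens, between imiquimod-dorsal (26.9 to 35.1) and control (79.7 to 83.7), with no overlap, and from 77.5 to 85.8 in IL-23-ear spleens. The ratio was not tested.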
